A study of Arabidopsis thaliana with 8 samples.

Results

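In leaf stomata of Arabidopsis thaliana, 193 array features gave a signal well above background under heat in both genotypes and in no sample kept without heat. They were chosen from the 43603 non-control features of the array by the mark that the scanner software sets for a signal clearly above background. A feature had to carry the mark on all 4 heat arrays and on none of the 4 control arrays, and 257 features did. They were ranked by their mean scaled signal over the heat arrays, where a scaled signal is the background-corrected intensity divided by the 75th percentile of its array, and the top 200 were kept. Of these, 7 features of small heat shock proteins were left out (AT1G53540, HSP23.6-MITO, ATHSP22.0, HSP17.4, HSP17.6A, HSP17.6II and AT1G52560), as HSP70, HSP90 and HSP101 genes would have been. The exclusion went by locus, so loci without a symbol may still belong to these families. The reverse pattern, well above background on all control arrays and on no heat array, was found for 122 features.

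The samples were leaf stomata of wild-type Col-0 plants and of bam1, a single line in which a T-DNA disrupts the gene of β-amylase 1 (BAM1), each with and without heat. All plants were 5 weeks old and were harvested when the light period ended, with 5 to 8 plants combined in a biological replicate. Control plants of both genotypes were kept at 22 °C by day and 18 °C by night, while heat-stressed plants of both genotypes received 32 °C by day and 28 °C by night for 3 d. Each of the 4 groups was read on 2 single-dye (Cy3) Agilent arrays. The first replicates of all groups shared slide 1, and the second replicates shared slide 2.

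When temperature rises, heat stress transcription factors bind to heat shock elements in promoters and switch on genes for chaperones and for enzymes that remove reactive oxygen. Many of these genes are nearly silent at moderate temperature, so their transcripts appear only after warming. Chaperones keep other proteins folded, ascorbate peroxidases break down hydrogen peroxide, and further induced proteins prolong the acquired tolerance once the first heat has passed. Other genes that are silent in unstressed leaves belong to seed development, senescence, defence and the handling of lipids and foreign compounds.

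Between 61.3% (bam1 heat replicate 2) and 70.9% (bam1 heat replicate 1) of all features carried this mark, depending on the array. Precision is limited by having 2 arrays in a group. The lowest scaled signal with the mark lay between 0.013 and 0.0304, and it was highest on bam1 heat replicate 2. BAM1 (AT3G23920) had scaled signals of 2.34 to 4.52 on the wild-type arrays and at most 0.201 on those of the mutant, which follows the genotype labels. All 10 guard cell markers, among them KAT1, MYB60 and SLAC1, were well above background on all 8 arrays, as were 8 of 8 mesophyll, 9 of 9 vasculature, 5 of 5 epidermis and 2 of 4 trichome markers. In Col-0, 5 of the 10 guard cell markers fell under heat (11.5% of all features tested did) and in bam1 2 did (12.0% of all features). The summed scaled signal of the 10 in Col-0 was 96.3 to 132 without heat and 40.7 to 48.6 with it (bam1 74.1 to 86.3 and 36.2 to 39.9). Most of this sum came from TGG1, with 110 and 76 in control and 36.3 and 31 in heat samples of Col-0. FAMA and GORK changed little in Col-0 (−0.02 and −0.06 on the log2 scale). The Col-0 sums of mesophyll markers (1040 to 1770 without heat, 683 to 894 with it) and vasculature markers (149 to 152 and 75.7 to 92.7) fell as well. Those of epidermis and trichome markers overlapped. The part of the cell mixture in the values below was not tested. In such bulk RNA, fewer cells of a type and less RNA per cell cannot be told apart.

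Of the 193 features, 150 could be assigned to 144 loci, of which 54 have a gene symbol and 90 only a locus code in the reference used here, and 43 features had no locus. A pair of features was chosen for each of 6 loci (AT1G09500, AT5G28237, AT5G53710, PBP1, bZIP44 and AT2G38255). The median scaled signal of the 193 features was 0.0084 and 0.0108 in the control samples of Col-0 and 0.01 and 0.0111 in those of bam1, and under heat it was 0.0796 and 0.0795 in Col-0 and 0.0826 and 0.0827 in bam1. For each of the 193, every heat array lay above every control array, which the choice by mark and heat signal largely fixed. Signals depend on the probe as well as on the transcript, so they give no order of transcript levels between genes.

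Most of these signals remained faint. Only 5 features had a mean scaled signal over the heat arrays above 1, while 25.2% of all features did, and 15 lay above 0.5 and 65 above 0.1. The median of these means was 0.0816 and the range 0.0477 to 3.36, against 0.0043 to 0.0282 for the means over the control arrays. Just inside the limit of rank 200 stood features with mean scaled signals of 0.0482, 0.048 and 0.0477 (A_84_P554350, PRK4 and A_84_P796385), and just outside it features with 0.0466, 0.046 and 0.0459 (A_84_P836184, AT5G49700 and AT4G09920).

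**Figure D1:**
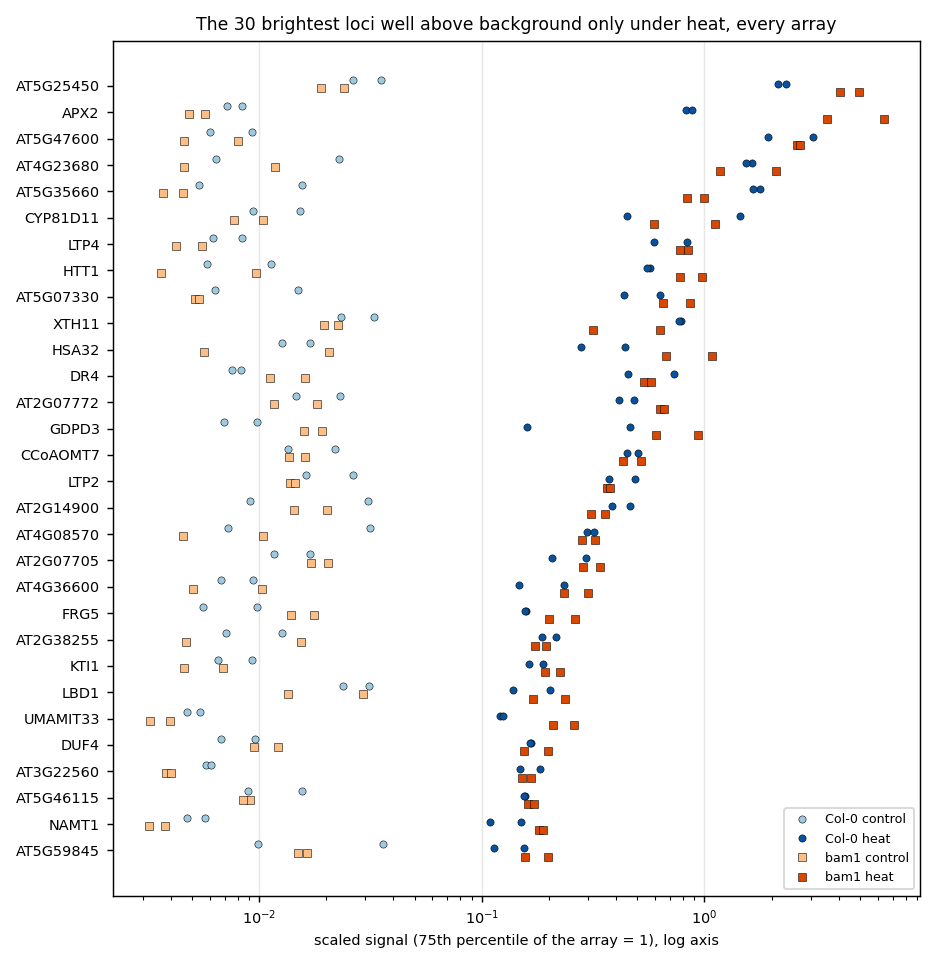
Scaled signal (75th percentile of the array = 1, log axis) of the 30 loci with the highest mean signal under heat, with 1 point for each of the 8 arrays, circles for Col-0 and squares for bam1, pale for control and dark for heat. All heat points lie to the right of all control points, which the choice of features largely fixed. In APX2 the bam1 heat points (6.38 and 3.56) stand apart from the Col-0 heat points (0.822 and 0.88).

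Since no control signal was well above background, the size of the heat response has only a lower bound. It is given as at least N-fold, the heat arrays over the control arrays, each averaged on the log2 scale. Each control array was set to the higher of the feature's own signal and the lowest marked signal of that array. The bound was 1.07 to 101-fold in Col-0 (median 3.14) and 2.04 to 302-fold in bam1 (median 4.99). It reached 2-fold for 178 features in Col-0 and for all 193 in bam1, and 10-fold for 20 and 35. Without heat, the lowest marked signals were 0.0227 and 0.0259 in Col-0 but 0.0151 and 0.0165 in bam1, so bounds of the genotypes are not on the same footing. In the limma fit over all features, 185 of the 193 passed in Col-0 (adjusted P below 0.05 and more than 2-fold), where 10.6% of 29617 features tested were called higher and 11.5% lower, and 188 passed in bam1, where the shares were 11.0% and 12.0%. The features were chosen on this contrast, so these counts describe the choice and are no test of it.

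The mark for a signal well above background is strict. By the weaker mark of the same software, a signal significantly above its local background, 177 of the 193 features were also present on at least 1 control array and 69 on all 4, and only 16 on none. Most of these transcripts can therefore not be called absent without heat, and the set is one of features that passed a strict limit only under heat. The library that decided most about the choice was bam1 heat replicate 2, which had the highest limit. Without it, 516 features met the rule in place of 257.

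Grouped here under heat and oxidative stress were APX2, HSA32, the heat-induced TAS1 target genes HTT1, HTT3 and HTT4, FTSH6 and, as an alternative oxidase, AOX1C. APX2 (AT3G09640) encodes a cytosolic ascorbate peroxidase. Its scaled signal was 0.0072 and 0.0084 in control and 0.822 and 0.88 in heat samples of Col-0, and 0.0048 and 0.0057 in control and 6.38 and 3.56 in heat samples of bam1. Both bam1 heat arrays lay far above both Col-0 heat arrays, and the control arrays of the genotypes were alike at background. The bound on the heat response was at least 35.1-fold in Col-0 and at least 302-fold in bam1. Of the other ascorbate peroxidase genes, the most strongly lit feature of APX1, the constitutive cytosolic form, had 15.8 and 17.1 in Col-0 heat and 14.7 and 17.3 in bam1 heat, where the groups overlapped.

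HSA32 (AT4G21320), a protein needed to prolong acquired thermotolerance, had a scaled signal of 0.0169 and 0.0126 in control and 0.28 and 0.441 in heat samples of Col-0, and 0.0205 and 0.0056 in control and 1.08 and 0.672 in heat samples of bam1. Again both bam1 heat arrays exceeded both Col-0 heat arrays. HTT1 (AT4G29770), a target of small RNAs made from the TAS1 transcript, had 0.0059 and 0.0113 in control and 0.568 and 0.55 in heat samples of Col-0, and 0.0036 and 0.0097 in control and 0.972 and 0.775 in heat samples of bam1. The genotypes did not overlap under heat. The next gene on the chromosome, HTT4 (AT4G29760), had 0.0588 and 0.0683 in Col-0 heat and 0.0648 and 0.0766 in bam1 heat. HTT3 (AT5G18065) had 0.0791 and 0.108 in Col-0 heat and 0.0903 and 0.109 in bam1 heat. In both, the genotypes overlapped. HTT2 (AT5G18040) gave 0.125 to 0.197 on all 8 arrays, with and without heat alike, and HTT5 (AT1G51670) reached 0.0317 at most, so only some of this family belonged to the set.

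FTSH6 (AT5G15250), a protease of the chloroplast membranes, had a scaled signal of 0.0089 and 0.0075 in control and 0.0868 and 0.071 in heat samples of Col-0, and 0.0046 and 0.0111 in control and 0.188 and 0.1 in heat samples of bam1. The bam1 heat arrays lay above those of Col-0, with the larger distance on slide 1. Features of the related FTSH1, VAR1, FTSH8 and VAR2 were well above background on all 8 arrays. AOX1C (AT3G27620), an alternative oxidase of mitochondria, had 0.0661 and 0.0917 in Col-0 heat and 0.0783 and 0.0985 in bam1 heat, and its Col-0 control arrays gave 0.0144 and 0.0398. The genotypes overlapped under heat. AOX1A, the form usually found in leaves, was well above background on all arrays, AOX1B and AOX2 on none, and AOX1D on at most 2 heat arrays.

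Proteins linked to dehydration and seeds were represented by DR4, TSPO and the late embryogenesis abundant protein loci AT4G36600 and AT3G17520. DR4 (AT1G73330), first named as drought-repressed, had a scaled signal of 0.0076 and 0.0083 in control and 0.454 and 0.726 in heat samples of Col-0, and 0.016 and 0.0112 in control and 0.535 and 0.573 in heat samples of bam1. AT4G36600 had 0.0067 and 0.0094 in control and 0.235 and 0.147 in heat samples of Col-0, and 0.005 and 0.0103 in control and 0.301 and 0.234 in heat samples of bam1. In both, heat signals of the genotypes overlapped. TSPO (AT2G47770), a stress-induced membrane protein, lay between 0.0845 and 0.163 under heat and AT3G17520 between 0.0456 and 0.0899.

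Among genes of the cell surface, the lipid transfer proteins LTP4 (AT5G59310) and LTP2 (AT2G38530) and the xyloglucan-modifying enzyme XTH11 (AT3G48580) gave clear signals. LTP4 had a scaled signal of 0.0062 and 0.0084 in control and 0.594 and 0.837 in heat samples of Col-0, and 0.0042 and 0.0055 in control and 0.773 and 0.846 in heat samples of bam1. LTP3, whose features were also well above background without heat, moved from 0.186 to 0.491 on the control arrays to 6.96 to 10.6 on the heat arrays in its brighter feature, while the features of LP1 (LTP1) showed no such step. For LTP2 the values were 0.0162 and 0.0263 in control and 0.371 and 0.485 in heat samples of Col-0, and 0.0138 and 0.0145 in control and 0.364 and 0.377 in heat samples of bam1. XTH11 had 0.0233 and 0.0329 in control and 0.783 and 0.77 in heat samples of Col-0, and 0.0196 and 0.0226 in control and 0.316 and 0.633 in heat samples of bam1. Here both bam1 heat arrays fell short of both Col-0 heat arrays, by 0.79 on the log2 scale on average (SE 0.34, adjusted P = 1 by limma). CCoAOMT7 (AT4G26220), a methyltransferase of the caffeoyl-CoA type, ran from 0.432 to 0.516 under heat in both genotypes.

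Enzymes of small molecules included CYP81D11 (AT3G28740), a cytochrome P450. Its scaled signal was 0.0152 and 0.0093 in control and 1.45 and 0.451 in heat samples of Col-0, and 0.0104 and 0.0077 in control and 1.11 and 0.593 in heat samples of bam1. Replicate 1, on slide 1, was the higher in both genotypes, and the genotypes overlapped. GDPD3 (AT5G43300), a glycerophosphodiester phosphodiesterase, had 0.0069 and 0.0097 in control and 0.462 and 0.159 in heat samples of Col-0, and 0.0192 and 0.0159 in control and 0.938 and 0.608 in heat samples of bam1. Both bam1 heat arrays exceeded both Col-0 heat arrays, and Col-0 heat replicate 2 was the lowest. The neighbouring aldo-keto reductase genes AKR4C8 (AT2G37760) and ChlAKR (AT2G37770) had heat signals of 0.12 to 0.147 and of 0.0782 to 0.144. CHAT (AT3G03480), which makes the leaf volatile hexenyl acetate, stood at 0.0992 to 0.105 on all heat arrays.

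Among carriers, UMAMIT33 (AT4G28040), of a family of amino acid exporters, had a scaled signal of 0.0047 and 0.0055 in control and 0.121 and 0.124 in heat samples of Col-0, and 0.0032 and 0.004 in control and 0.208 and 0.259 in heat samples of bam1. The genotypes stood apart under heat. GPT2 (AT1G61800), the glucose 6-phosphate/phosphate translocator of plastids, had 0.005 and 0.0099 in control and 0.0713 and 0.0626 in heat samples of Col-0, and 0.0109 and 0.0154 in control and 0.115 and 0.121 in heat samples of bam1. They stood apart here too, but another feature of GPT2 did not follow (0.0266 and 0.0346 in Col-0 heat, 0.0387 and 0.0281 in bam1 heat, with 0.0764 and 0.0324 in Col-0 control). The sugar carrier SAG29 (AT5G13170, also known as SWEET15) had heat signals of 0.0858 to 0.14.

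Genes of senescence and defence included KTI1 (AT1G73260), a Kunitz trypsin inhibitor, with scaled signals of 0.163 and 0.188 in Col-0 heat and 0.224 and 0.192 in bam1 heat, against 0.0046 to 0.0093 on the control arrays. The heat arrays of bam1 lay just above those of Col-0. SRG1 (AT1G17020), SAG13 (AT2G29350) and the basic chitinase HCHIB (AT3G12500) had heat signals of 0.107 to 0.124, 0.0416 to 0.0778 and 0.0462 to 0.0621. The 6 genes of this group had a highest mean of 0.192 over the heat arrays.

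Among regulators, FRG5 (AT1G11100), named as a helicase-like protein of the SNF2 type, had a scaled signal of 0.158 and 0.157 in Col-0 heat and 0.201 and 0.262 in bam1 heat, and LBD1 (AT1G07900), a LOB domain protein, 0.138 and 0.202 in Col-0 heat and 0.236 and 0.169 in bam1 heat. The former stood apart between genotypes and the latter did not. Further members were bZIP44 and bZIP48, the bHLH factor NAI1 that is needed for endoplasmic reticulum bodies, MYB46, a regulator of secondary walls, NLP3, BBX18 and the kinase CIPK16, with means over the heat arrays down to 0.0565. Genes known from meiosis, embryos or pollen also appeared, among them SYN1 (AT5G05490), the meiotic cohesin also called REC8, with 0.115 and 0.0992 in Col-0 heat and 0.137 and 0.16 in bam1 heat against 0.0097 to 0.0167 on the control arrays. Both bam1 heat arrays lay above both Col-0 heat arrays.

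The other loci among the 30 brightest carried no annotation that could be used here. AT5G25450 had the highest mean of all, with a scaled signal of 0.0264 and 0.0354 in control and 2.13 and 2.32 in heat samples of Col-0, and 0.0189 and 0.024 in control and 4.06 and 4.93 in heat samples of bam1. AT5G47600 had 0.006 and 0.0093, 1.92 and 3.08, 0.0046 and 0.008, and 2.59 and 2.69 in the same order of groups. The former stood apart between genotypes under heat, and the latter overlapped. AT4G23680 (1.63 and 1.53 in Col-0 heat, 2.09 and 1.17 in bam1 heat) and AT5G35660 (1.78 and 1.65 in Col-0 heat, 0.834 and 1.0 in bam1 heat) completed the 5 features with a mean above 1. Means over the heat arrays were 0.645 for AT5G07330, 0.546 for AT2G07772, 0.379 for AT2G14900, 0.305 for AT4G08570, 0.282 for AT2G07705 and 0.192 for AT2G38255. DUF4, AT3G22560, AT5G46115, NAMT1 and AT5G59845 closed the list with means of 0.156 to 0.17.

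Whether the response differed between genotypes was asked with bam1 against Col-0 under heat. The choice of features did not use this difference, but it filtered and ranked the heat signals from which it is made. The lowest marked signal was 0.0304 on bam1 heat replicate 2, against 0.013 and 0.0163 on the Col-0 heat arrays, so a feature could enter with a fainter signal in Col-0 than in bam1, and the choice is not neutral between genotypes. None of the 193 features was called by limma (0 of 29617 features over the whole array, 0% in either direction), and the smallest adjusted P was 0.351 among the 193 and 0.142 over all features, for BAM1 itself with a fall of 4.62 on the log2 scale. With 2 arrays per group this fit had 4 residual degrees of freedom. At an unadjusted P below 0.05 and more than 2-fold, 5 of the 193 were higher in bam1 (2.59%, against 0.699% of all features tested) and 1 was lower (0.518%, against 0.301%). The 5 were AT5G25450, APX2, GDPD3, AT1G12064 and A_84_P839037, and the 1 was AT2G18480. The methods' t-test gave 6 features at the same unadjusted limits and 0 after Benjamini-Hochberg adjustment. The share of all features that the t-test called is not given here, so the 6 cannot be set against it.

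All features tested, which are set beside the 193 here, were not filtered in this way, so the shares below describe the features chosen and are no test of a shift. The median difference between bam1 and Col-0 was 0.10 on the log2 scale for the 193 and −0.01 for all features tested, with quartiles of −0.10 and 0.30 for the 193. On slide 1 the median was 0.16, on slide 2 0.05. In 82 of the 193 (42.5%), bam1 lay above Col-0 on both slides, while 27.0% of all features tested did, and in 42 (21.8%) it lay below on both, against 29.9%. Both bam1 heat arrays exceeded both Col-0 heat arrays in 52 features (26.9%, against 13.7%) and were below both in 20 (10.4%, against 15.6%). A difference of more than 2-fold above Col-0 on both slides was seen in 5 (APX2, AT1G12064, A_84_P839037, GDPD3 and A_84_P842213, 2.59% against 0.409%) and of more than 2-fold below in none (against 0.118%). The median stayed above that of all features under each scaling tried, at 0.08 with quantile normalization (all features −0.02), 0.10 in the deposited log2 table (−0.01) and 0.17 with a capped normexp background correction (0.04). With the uncapped correction it was 1.23 (0.25), where the interquartile range of bam1 heat replicate 1 had shrunk to 0.77 on the log2 scale against 3.36 to 4.14 on the other arrays. The counts above and below on both slides moved with the scaling. They were 72 and 48 with quantile normalization (all features 25.4% and 31.5%) and 129 and 13 with the capped correction (38.5% and 22.5%). With the uncapped correction they were 148 and 2 (41.4% and 19.1%). Replicates of the 193 differed slightly more than those of all features, with a median SD of 0.19 against 0.15 on the log2 scale in either genotype under heat.

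**Figure D2:**
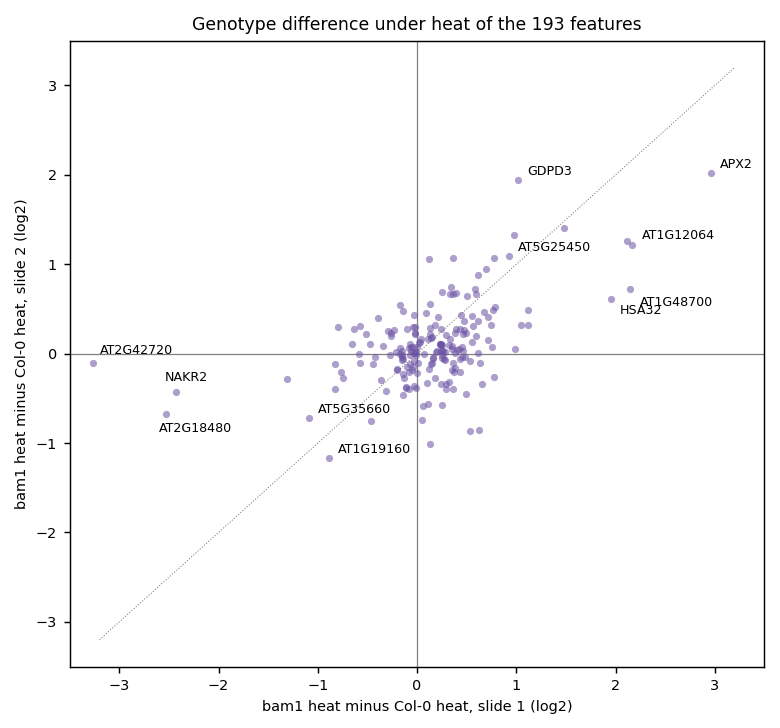
Difference between bam1 and Col-0 under heat (log2) on slide 1 (x axis) and on slide 2 (y axis), 1 point for each of the 193 features, with the dotted line marking equal differences. Most points lie within 1 log2 unit of 0 on both slides, APX2 is far out on both (2.96 and 2.02), and AT2G42720, AT2G18480 and NAKR2 are far below 0 on slide 1 only.

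APX2 stood first, with a difference of 2.49 on the log2 scale (SE 0.28, adjusted P = 0.351, 2.96 on slide 1 and 2.02 on slide 2). Without bam1 heat replicate 2 it was 2.91 and was called. This was the only call among the 193 in any fit that left out an array, and 19 features over the whole array were called in that fit. Of the other features furthest above Col-0, AT1G12064 had 0.0283 and 0.0417 in Col-0 heat and 0.127 and 0.0973 in bam1 heat (1.70, adjusted P = 0.854 by limma), and A_84_P839037, with no locus, had 0.0236 and 0.0323 in Col-0 heat and 0.103 and 0.0777 in bam1 heat (1.69, adjusted P = 0.536). GDPD3 differed by 1.48 (SE 0.50, adjusted P = 1), which became 0.71 without Col-0 heat replicate 2 and 2.25 without Col-0 heat replicate 1. A_84_P842213, with no locus, had 0.209 and 0.0468 in Col-0 heat and 0.583 and 0.123 in bam1 heat (1.44, adjusted P = 1), where replicate 1 was the higher in both genotypes and the genotypes overlapped. Its difference was 0.32 to 2.56 when a heat array was left out. AT1G48700, the sixth in this order and named for its neighbour below, had 0.0191 and 0.035 in Col-0 heat and 0.0849 and 0.0576 in bam1 heat (1.44, adjusted P = 1). In AT1G12064, A_84_P839037 and AT1G48700, both bam1 heat arrays exceeded both Col-0 heat arrays, and with the capped normexp correction the differences were 0.92, 0.89 and 0.73. HSA32 differed by 1.28 (SE 0.60, adjusted P = 1).

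Of the features furthest below Col-0, AT2G42720 and NAKR2 rested largely on a single array. AT2G42720 had a scaled signal of 0.272 and 0.0391 in Col-0 heat and 0.0282 and 0.0366 in bam1 heat, a difference of −1.68 that shrank to −0.28 without Col-0 heat replicate 1. NAKR2 (AT2G37390), linked to sodium and potassium handling, had 0.265 and 0.0538 in Col-0 heat and 0.0492 and 0.0399 in bam1 heat, a difference of −1.43 that became −0.28 in the same way. AT2G18480 had 0.2 and 0.0866 in Col-0 heat and 0.0346 and 0.0542 in bam1 heat (−1.60, and −1.0 without that array). In all 3, Col-0 heat replicate 1 was the one high array. A second feature of NAKR2 gave 0.0703 and 0.049 in Col-0 heat and 0.0728 and 0.0734 in bam1 heat, and a second feature of AT2G42720 gave 0.0293 and 0.0304 in Col-0 heat, without that array standing out. AT1G19160 (−1.03) and AT5G35660 (−0.91) were lower in bam1 on both slides, each with an adjusted P of 1. Under the uncapped normexp correction the sign of AT2G42720, NAKR2, AT2G18480 and AT1G19160 turned. A single heat array more than 2-fold above the other 3 was found for 4 of the 193 (2.07%, against 0.665% of the features well above background on all heat arrays), and a single array more than 2-fold below for 3 (1.55%, against 0.244%).

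Of the 193 features, 42.5% lay above Col-0 on both slides and 21.8% below, against 27.0% and 29.9% of all features tested. By role, genes of heat and oxidative stress had the highest median difference between bam1 and Col-0 under heat, at 0.63 on the log2 scale (0.10 to 2.49). All 7 lay above Col-0 on both slides. The median of this group was 0.55 to 1.27 under the other scalings. The 6 genes of meiosis, embryo and pollen had a median of 0.29 with 4 above and 0 below on both slides. For the 6 genes of senescence and defence the median was −0.17, with 1 above and 4 below, but it was 0.06 and 1.13 under the capped and uncapped normexp correction. Medians of the other groups were 0.13 for the 4 dehydration and seed-type genes, −0.10 for the 6 of lipid transfer, wall and surface, 0.03 for the 8 small-molecule enzymes, 0.09 for the 9 carriers and metal-binding proteins, and −0.03 for the 10 of transcription and signalling, and the negative medians turned under 1 or both of these corrections. The groups were formed after the values were known and were not tested. The 7 small heat shock proteins left out by rule had larger differences than the medians of all these groups, 1.54 to 3.05 with a median of 2.43, and the smallest adjusted P among them was 0.351. In 4 bins of the 193 by brightness the median difference was 0.12, 0.09, 0.13 and 0.03 from the brightest to the faintest.

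**Figure D3:**
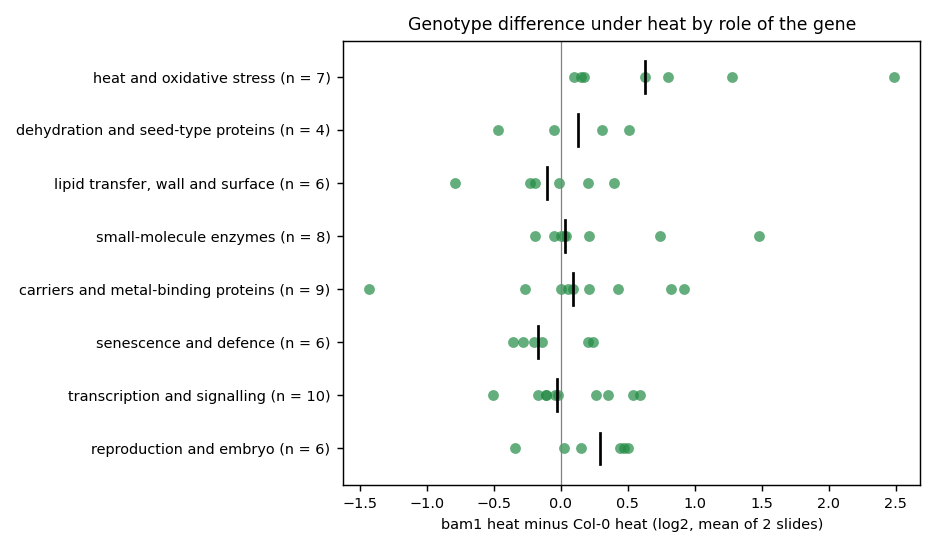
Difference between bam1 and Col-0 under heat (log2, mean of 2 slides) for annotated genes of the set by role, with 1 point for each gene and a vertical bar at the group median. All 7 heat and oxidative stress genes lie above 0 (median 0.63), while the other groups lie on both sides of 0.

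The difference of the heat responses between genotypes called none of the 193 features (0% of all features in either direction, smallest adjusted P of 1 among the 193 and 0.589 over all features). At an unadjusted P below 0.05 and more than 2-fold, 18 were higher in bam1 (9.33%, against 0.841%) and 4 lower (2.07%, against 0.456%). This contrast sets heat signals against control signals that were not well above background. On the control arrays alone the median difference between bam1 and Col-0 was −0.33 for the 193 and 0.00 for all features, and none of these control values was well above background. The count is thus no measure of the heat response alone.

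For 37 of the 144 loci the array holds 46 further features that did not enter the set. Of these, 27 (22 loci) were well above background on at least 1 control array, 16 (13 loci) on all 4 control arrays, 14 on heat arrays only and 5 on none. For 22 loci, detection only under heat is therefore a property of the feature chosen and not of the locus. Of 36 further features tested, 28 were called higher under heat in Col-0 (10.6% of all features) and 30 in bam1 (11.0%), with a median change of 2.11 and 2.60 on the log2 scale. They read RNA of the same loci on the same arrays as the choice, so these counts are a description.

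The further feature of HSA32 had a scaled signal of 0.227 and 0.208 in control and 3.47 and 4.34 in heat samples of Col-0, and 0.199 and 0.206 in control and 10.9 and 9.32 in heat samples of bam1. It was thus well above background without heat, and bam1 exceeded Col-0 under heat by 1.38 on the log2 scale (SE 0.18, adjusted P = 0.351), close to the 1.28 of the feature in the set. That of LTP2 moved from 0.114 to 0.162 on the control arrays to 2.24 to 3.51 on the heat arrays, and that of bZIP44 from 0.166 to 0.245 to 1.09 to 1.48. Pyruvate orthophosphate dikinase (PPDK, AT4G15530), with 0.0471 to 0.0548 under heat in the set, had another feature at 2.27 to 2.81 on the control arrays and 5.82 to 6.98 on the heat arrays. All 3 further features of the mitochondrial ADP/ATP carrier AAC2 (AT5G13490) were well above background on every control array. AT5G35660 disagreed, since its further feature gave 1.42 and 0.852 in the heat samples of Col-0 and already 0.919 and 0.624 without heat.

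**Figure D4:**
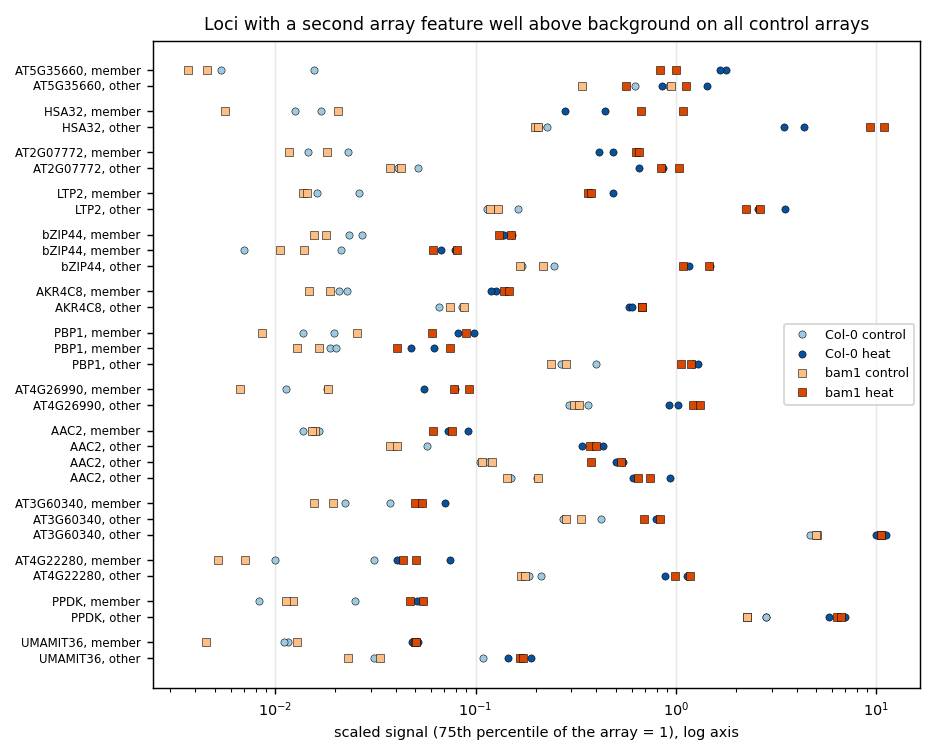
Scaled signal (75th percentile of the array = 1, log axis) of features in the set (member) and further features of the same locus (other) for the 13 loci with a further feature well above background on all 4 control arrays, 1 point per array, symbols as in the plot of the 30 brightest loci. In HSA32, LTP2, bZIP44 and AAC2 the heat points of both kinds of feature lie right of the control points, while those of the other feature of AT5G35660 overlap them.

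The 144 loci were spread over all 5 chromosomes. Chromosome 2 held 22.2% of them and 15.6% of all loci on the array, and chromosome 3 held 13.9% and 19.9%. Of the 54 array loci with codes in the AT2G076 and AT2G077 range, 3 belonged to the set (AT2G07772, AT2G07705 and AT2G07692), against 144 of all 25410 array loci. This part of chromosome 2 carries a copy of the mitochondrial genome, so nuclear and mitochondrial RNA may not be told apart there. Directly adjacent were HTT4 and HTT1, AKR4C8 and ChlAKR, and AT1G62760 and AT1G62770, and 7 pairs in all lay within 5 genes of each other. AT1G48700 is directly adjacent to AT1G48710, a copy of the heat-activated retrotransposon ONSEN. None of the 8 listed ONSEN copies has a feature matched to it on this array, and a second feature of AT1G48700 was well above background on no array. AT3G23930, singled out after its values were seen, is directly adjacent to the gene disrupted in the mutant, BAM1. It had 0.107 and 0.0832 in Col-0 heat and 0.211 and 0.21 in bam1 heat, and both bam1 arrays exceeded both Col-0 arrays (1.16 on the log2 scale, SE 0.61, adjusted P = 1 by limma).

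Of the known heat regulators, 16 of 21 heat stress transcription factors and 16 of 18 other regulators were well above background on all 8 arrays. On any single array, 61.3% to 70.9% of all features were. The share of all features on all 8 arrays at once is not given here and can be no higher than 61.3%. The set holds 193 of 43603 features, so most genes of any such list lie outside it. Of the factors, 18 were tested and 0 belonged to the set, while 8 rose in Col-0 (10.6% of all features tested) and 6 in bam1 (11.0% of all features). HSFA2, the factor that extends the heat response, had a scaled signal of 0.0344 and 0.0545 in control and 1.08 and 2.0 in heat samples of Col-0, and 0.0617 and 0.107 in control and 2.88 and 4.17 in heat samples of bam1, a rise of 5.09 in Col-0 (SE 0.42, adjusted P = 6.29e-04) and 5.42 in bam1 (adjusted P = 4.50e-04) on the log2 scale. HSFB1 (HSF4) rose by 2.1 in Col-0 and 3.04 in bam1 on the log2 scale. Other factors had the larger rise in Col-0, among them HSFB2A (2.28 in Col-0 and 1.02 in bam1) and HSFB2B (1.94 and 1.0). Of 18 other heat regulators and co-chaperones, all were tested, 10 rose in Col-0, 11 rose and 1 fell in bam1 (all features 11.0% and 12.0%), and 2 (APX2 and HSA32) belonged to the set. MBF1C rose by 3.81 in Col-0 (adjusted P = 3.30e-04) and 3.45 in bam1, from scaled signals of 2.79 to 3.65 without heat.

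Genes of the seed maturation and stress hormone lists did not belong to the set. With 193 of 43603 features in the set, 0 members in lists of this size lies near the share over all features. Of 22 seed maturation genes, 11 were well above background on no array, and 4 were tested, with 0 rising and 1 falling in Col-0 (10.6% and 11.5% of all features tested) and 1 each in bam1 (11.0% and 12.0%). The regulator FUS3 rose by 1.16 in bam1 (adjusted P = 0.00832 by limma) and had 0.78 in Col-0, under the 2-fold limit. Its scaled signals were lower in bam1 both without heat (0.823 and 0.749, against 1.76 and 1.57 in Col-0) and with it (1.42 and 2.17, against 2.84 and 2.87). DOG1, which controls seed dormancy, fell in both genotypes, from 0.0539 to 0.101 on the control arrays to signals not well above background. Of 20 stress hormone and cold or drought genes, 17 were tested, with 3 rising and 5 falling in Col-0 and 2 rising and 5 falling in bam1. Over all features the shares rising and falling were 10.6% and 11.5% in Col-0 and 11.0% and 12.0% in bam1, so the 2 of 17 rising in bam1 lay near the background. Among the brighter genes that fell, LTI78 (RD29A) changed by −4.28 in Col-0 and −4.1 in bam1 on the log2 scale, and COR15A by −3.9 and −5.06. The defensin gene PDF1.2 fell in both genotypes from 0.206 to 0.353 to signals not well above background. The storage protein gene VSP2 rose by 2.83 in Col-0 (SE 0.53, adjusted P = 0.00793 by limma) and 3.91 in bam1 (adjusted P = 0.00245). LOX2 and AOS of the same list did not rise (−0.43 and −0.76 in Col-0, −0.68 and −0.82 in bam1).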

How the data were processed

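The authors deposited the feature extraction output (version 11.5.1.1) of each array, in which spot intensity is background-corrected but not normalized between arrays, and a table of log2 values of the same arrays. After centring per feature, 100.0% of the latter matched intensities scaled to the array's 75th percentile to within 0.05, while 44.8% matched quantile-normalized ones. The paper describes drought arrays, not these heat arrays.

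Log2 intensities minus each array's 75th percentile were fitted with limma 3.58.1 (R 4.3.3) as 4 group means over 8 arrays, for the 29617 features whose 2 arrays were both well above background in some group, with Benjamini-Hochberg adjustment over all of them. Called means an adjusted P below 0.05 and more than 2-fold. The fit was also run on simulated data. Spots with outlier marks were left out of the fit. Accessions in the files assigned 34348 of 43603 features to 25410 loci (RefSeq, TAIR10.1).

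Members, lists and contrasts were chosen with earlier results of these data known. Named are the 30 brightest loci, the 5 largest differences between genotypes in each direction with the same sign on both slides, genes on the lists, features beside rank 200 and adjacent members. Role groups and further genes were chosen after values were seen. Replicate numbers mark the slide, and arrays of the same number deviated together in all 6 pairs of groups (r from 0.30 to 0.63), so they pair the arrays. The alternatives were quantile normalization, normexp correction with an offset of 50, the deposited log2 table, no filter, the replicate block, only the groups compared, the methods' t-test, no fold limit, outlier spots kept and leaving out each array. Promoter sequences were not analysed here.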

Additional observations from a re-analysis of the deposited data

How the results depend on the processing

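Features called under heat numbered 6539 in Col-0 and 6805 in bam1, of any direction. They became 2082 and 2658 with normexp, where local background spikes had shrunk the spread of bam1 heat replicate 1. With these spikes capped (chosen after seeing the data) they were 4456 and 4387, still below the main counts in both genotypes. They numbered 7 and 2 by the methods' t-test after Benjamini-Hochberg adjustment and 10747 and 11287 with no fold limit. The median of all features moved to −0.14 in Col-0 and 0.36 in bam1 with normexp, and to 0.25 for bam1 against Col-0 under heat. Leaving out an array gave 5082 to 6601 and 5772 to 6904. With the replicate block the counts were 7092 and 7269, and 0 of the 193 features were called between genotypes or in the difference of the responses, so among the 193 the block changed no call in these contrasts. Of the 193, bam1 against Col-0 under heat called 0 to 1 when an array was left out (1, APX2, without bam1 heat replicate 2, where the remaining array is assumed to vary like the others) and 6 by the methods' t-test at unadjusted P. For these 6, the share of all features is not given here. The detection rule found 257 to 516 features when an array was left out and 17 by the weaker mark on control arrays, and all 193 were kept with quantile-normalized ranking. With uncapped normexp the differences of AT2G42720 (0.51), AT2G18480 (0.54), NAKR2 (0.47) and AT1G19160 (0.82) turned positive. Promoter alternatives were not run. Faint signals near the mark limit what can be called absent.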
